A study of Mus musculus with 10 samples.

Results

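A fixed list of 10 heat shock chaperone genes was followed across the libraries: Hspa1a, Hspa1b, Hspa8, Hsp90aa1, Hsp90ab1, Dnajb1, Hspb1, Hsph1, Bag3 and Hspe1. All 10 were present among the 52181 gene entries of the table, of which 16620 held at least 1 unique molecular identifier (UMI, a counted transcript), and all 10 had UMIs in each of the 8 libraries. The list was chosen by name and not by measured values, with earlier results of these data known. Hspe1 is the exception to the cytosolic label, since its protein works inside mitochondria.

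The study measured single macrophages and microglia, the phagocytes of nervous tissue, from mouse retina and optic nerve by droplet RNA sequencing that reads transcript 3′ ends. All groups were wildtype mice of the 129S1/SvlmJ strain (labelled P56), of both sexes, taken at 10 weeks of age. Injured groups had their optic nerve crushed at 8 weeks, 2 weeks before collection, and uninjured groups had no treatment. Optic nerve crush severs the axons of retinal ganglion cells, whose bodies lie in the retina, so retina and nerve hold different parts of the damaged neurons. The 10 samples appear in the table as 8 libraries, 2 per group. Injured retina is a pool of samples 1 and 2 and a pool of samples 3 and 4, uninjured retina is libraries 5 and 6, injured optic nerve is libraries 1 and 3, and uninjured optic nerve is libraries 2 and 4. The labels do not say that each library came from separate animals, so p-values measure the spread between these libraries, which may be technical.

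Chaperones bind unfolded or partly folded proteins and keep them from clumping. Hsp70 proteins (Hspa1a, Hspa1b and Hspa8) take up a client protein with the help of J-domain partners such as Dnajb1, and release it when exchange factors such as Hsph1 and Bag3 act, while Hsp90 proteins take over clients at a later stage. The transcription factor HSF1 raises many of these genes under heat and other protein-damaging stress by binding heat shock elements, which are inverted repeats of the bases GAA and TTC. Handling and dissociating cells is a known trigger of both heat shock and immediate early genes.

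Those repeats can be seen in the promoters of 5 of the 7 chaperone genes for which RefSeq (GRCm38.p6) gave a promoter window. Hspa8, Hsp90aa1 and Hsp90ab1 were not matched. The 250 bases before each start were searched on both strands for the 2-unit motifs GAANNTTC and TTCNNGAA, where N is any base, and for 3-unit motifs, which overlap them and add 1 more unit in the same spacing (TTC, GAA, TTC or GAA, TTC, GAA, with 2 bases of any kind between units). The stretches that held a match are printed 5′ to 3′ on the gene's strand, with the repeat units in capitals, because the genes that carry them are the ones whose levels are followed below.
Hspe1 (chr1:55088039-55088096, plus strand): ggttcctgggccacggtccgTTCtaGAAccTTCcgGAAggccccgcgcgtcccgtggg
Hspb1 (chr5:135887802-135887849, plus strand): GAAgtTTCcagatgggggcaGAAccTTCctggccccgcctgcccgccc
Hsph1 (chr5:149636342-149636389, minus strand): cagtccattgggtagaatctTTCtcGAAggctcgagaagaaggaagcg
Hspa1b (chr17:34959315-34959362, minus strand): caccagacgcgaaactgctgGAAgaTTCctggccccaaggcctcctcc
Hspa1a (chr17:34972233-34972280, minus strand): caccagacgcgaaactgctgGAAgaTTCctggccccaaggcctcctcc

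GAANNTTC occurred in 6.69% of the 32851 promoter windows of all genes and in 44.4% of the 9 windows of the chaperone genes. It was found in 4 of the 7 genes (Hspa1a, Hspa1b, Hspb1 and Hspe1). TTCNNGAA occurred in 7.17% of all windows and in 33.3% of the 9, in 2 of the 7 genes (Hspe1 and Hsph1). Among these genes the 3-unit motifs were found in Hspe1 alone, each in 11.1% of the 9 windows, against 0.244% and 0.247% of all windows. The stretch shown for Hspa1a and Hspa1b is identical, and the 250 bases before the starts of these neighbouring genes matched at 247 positions (98.8%). No motif was found in the windows of Bag3 and Dnajb1. A match is a description of letters in this window and not a binding site.

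Several genes have copies that can share reads. Hspa1a (chr17:34969190-34972156, minus strand) and Hspa1b (chr17:34956436-34959238, minus strand) encode nearly the same protein, yet in the GRCm38 annotation none of the 426 stretches of 75 bases in the last 500 bases of one transcript was found in another gene. Their separate values are still given beside their sum. For Hspa8 (chr9:40800984-40810087, plus strand), 80.8% of such stretches also occur in other genes, for Hspe1 (chr1:55088132-55091307, plus strand) 39.0%, and for Hspb1 (chr5:135887919-135889563, plus strand) 10.3%. The levels of these 3 genes are therefore uncertain as absolute values. Hspe1 also overlaps Hspd1, which encodes its mitochondrial partner, and Hspa1a overlaps the gene model Gm20481.

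Libraries differed in size and depth. They held from 12 cells (uninjured retina 6) to 682 cells (injured optic nerve 3), from 56838 to 5424786 UMIs, and a median of 1159 to 12989 UMIs per cell. Myeloid markers were detected in all libraries (11 of 11 genes, summed 16888 to 37962 CPM, the UMIs of a gene per 1000000 UMIs of a library), as the labels state. Other cells were present too. Cells that formed a T and NK-like cluster (47 in all) made up 22 of the 109 cells of the first injured retina pool and 24 of the 57 of the second, with 1 cell in injured optic nerve 3 and none in the other 5 libraries. A list of 13 oligodendrocyte markers summed to 10561 and 13689 CPM in uninjured nerve, 3575 and 7665 in injured nerve, and 595 to 907 in retina. Endothelial markers reached 4420 CPM in uninjured optic nerve 4 and at most 407 in the other libraries. In uninjured optic nerve 2, neutrophil markers reached 748 CPM and fibroblast and pericyte markers 801 CPM, against at most 36.6 and 149 elsewhere. Astrocyte markers summed to 527 and 535 CPM in uninjured nerve 2 and 4, and to 265 and 59.4 in injured nerve 1 and 3. Results below are also given without the T and NK-like, oligodendrocyte-marker and endothelial-marker cells where that matters. No run left out cells by the neutrophil, fibroblast and pericyte or astrocyte lists. Uninjured retina had UMIs only in the first 27998 entries of the table, so every comparison was restricted to those entries. Injured retina had UMIs in 422 later entries, so in the retina crush and any difference in how the injured and uninjured libraries were made or annotated cannot be told apart. There were 2 barcodes that each occurred in a cell of injured optic nerve 1 and a cell of injured optic nerve 3.

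The 10 genes together took a larger share of the transcripts in injured retina than in any other group. Their share of all UMIs was 3.04% and 2.94% in the injured retina pools, 0.838% and 0.799% in uninjured retina 5 and 6, 0.806% and 0.660% in uninjured optic nerve 2 and 4, and 0.318% and 0.333% in injured optic nerve 1 and 3. The injured retina pools were the highest 2 libraries and the injured optic nerve libraries the lowest 2, so that the order of crushed and uncrushed tissue was opposite in retina and nerve. Cell by cell the median share was 2.80% and 2.55% in injured retina, 0.429% and 0.713% in uninjured retina, 0.394% and 0.247% in uninjured nerve, and 0.288% and 0.295% in injured nerve. By these medians the nerve groups overlapped, so the order in nerve was seen with pooled UMIs and not with cell medians. The mean number of the 10 genes seen per cell at equal depth, given below, was again lowest in injured nerve. The highest single cells reached 8.81% and 8.35% in the injured retina pools, and 1 cell of uninjured retina 5 reached 6.70%.

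**Figure D1:**
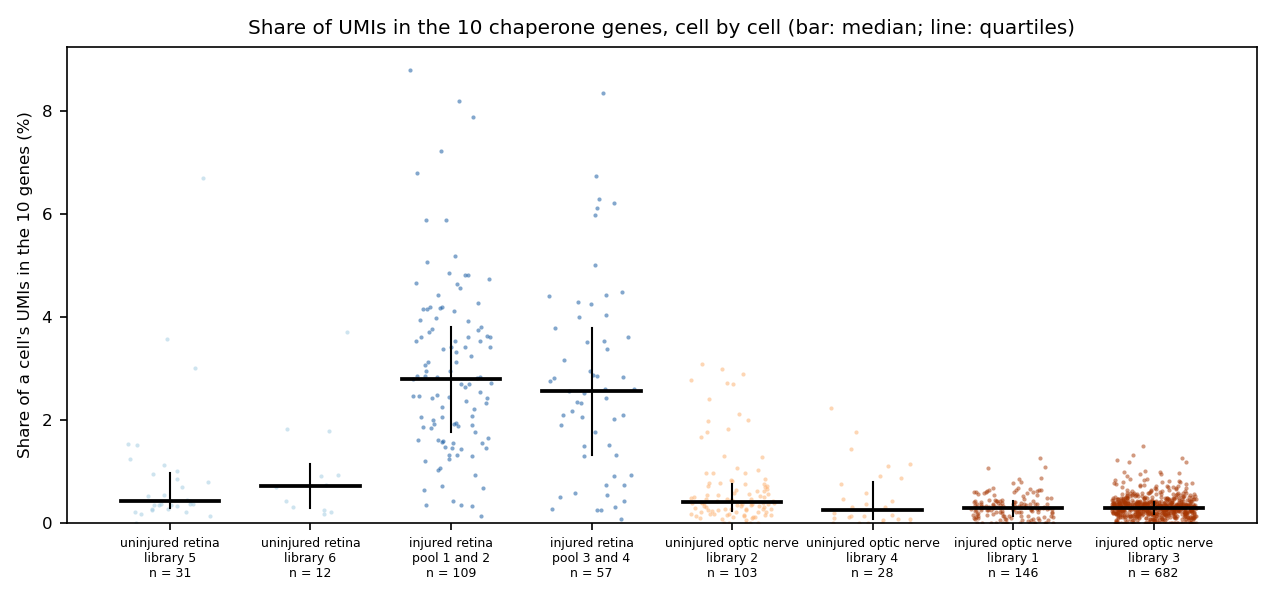
Share of a cell's UMIs (%, vertical axis) that fell in the 10 chaperone genes, with 1 point per cell, for each of the 8 libraries (horizontal axis, with the number of cells). Thick bars are medians and thin lines span the quartiles; the medians of the injured retina pools are 2.80% and 2.55%, and those of the other 6 libraries lie between 0.247% and 0.713%.

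In the retina, the comparison asked which genes differed after crush. Of the 10 genes, 8 rose after crush in the retina at an adjusted p under 0.05 (edgeR quasi-likelihood test on UMIs summed per library, 4 libraries, Benjamini-Hochberg adjustment over 3312 genes). Of all genes tested, 9.99% rose, 9.72% fell and 19.7% were called in either direction. The median log2 fold change was 2.2 over the 10 genes and 0.07 over all genes tested. The same 8 genes had CPM ranges that did not overlap between injured and uninjured retina, with injured higher, which held for 32.8% of the genes tested (30.1% with injured lower). Dnajb1 and Hspb1 did not pass.

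Both inducible Hsp70 genes rose. Hspa1a stood at 1562 and 1073 CPM in the uninjured libraries 5 and 6, against 7052 and 6739 CPM in the injured pools. Hspa1b stood at 861 and 387 CPM in the former, against 5287 and 6221 CPM in the latter. Both injured pools lay well above both uninjured libraries for each gene. The log2 fold change was 2.38 ± 0.33 (SE) for Hspa1a (edgeR adjusted p = 0.000689) and 3.13 ± 0.40 for Hspa1b (adjusted p = 0.000483). The sum of the pair was 1942 ± 681 CPM (SD, n = 2) in uninjured and 12649 ± 439 CPM in injured retina, a ratio of 6.51. Hspa1b gave 0.552 and 0.361 UMIs per Hspa1a UMI in uninjured retina and 0.750 and 0.923 in the injured pools, so its part of the pair was larger in both injured pools.

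The co-chaperones that work with Hsp70 did not all move. Bag3, a nucleotide exchange factor that links Hsp70 clients to autophagy, rose from 84.0 and 52.8 CPM in uninjured to 600 and 775 CPM in injured retina. Its log2 fold change of 3.20 ± 0.36 (edgeR adjusted p = 0.000182) rests on 15 UMIs in the uninjured libraries. Hsph1, an Hsp110 exchange factor, rose from 126 and 299 CPM to 1049 and 766 CPM, a log2 fold change of 2.28 ± 0.36 (edgeR adjusted p = 0.0016). Dnajb1, the J-domain partner that starts the Hsp70 cycle, was at 1149 and 739 CPM in uninjured and 1488 and 1135 CPM in injured retina. Its ranges overlapped, and the log2 difference of 0.45 ± 0.32 did not pass (edgeR adjusted p = 0.338). Without uninjured retina 5 its log2 fold change was 1.15 and passed (adjusted p = 0.00555), so that library decides the call. With every cell thinned to 1000 UMIs, Hsph1 no longer passed (log2 fold change 1.71, adjusted p = 0.0607).

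Both cytosolic Hsp90 genes rose. Hsp90aa1, the inducible form, went from 707 and 1355 CPM in uninjured retina to 4887 and 4760 CPM in the injured pools, a log2 fold change of 2.31 ± 0.32 (edgeR adjusted p = 0.000683). Hsp90ab1, the form that cells make constantly, went from 840 and 792 CPM to 3362 and 2474 CPM, a log2 fold change of 1.85 ± 0.30 (adjusted p = 0.00162). The injured pools lay above the uninjured libraries for both genes.

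Hspa8, the constantly made Hsp70, showed the smallest difference that passed. It was at 2374 and 2604 CPM in uninjured and 4893 and 4899 CPM in injured retina, with a log2 fold change of 1.01 ± 0.27 (edgeR adjusted p = 0.0255). On the mean ln values used for the nerve below, over 8 libraries, the difference was 0.46 ± 0.26 and did not pass (limma adjusted p = 0.245). The call was lost without the first injured pool (adjusted p = 0.180) and without the second (0.0770), although the fold change stayed at 1.09 and 1.17. Hspe1, the mitochondrial Hsp10, rose from 301 and 264 CPM to 1368 and 1013 CPM, a log2 fold change of 2.07 ± 0.31 (adjusted p = 0.00108).

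Hspb1, the small heat shock protein Hsp27, was found in few cells, and its library level turned on them. It was at 378 and 422 CPM in uninjured and 386 and 582 CPM in injured retina, and the log2 difference of 0.28 ± 0.29 did not pass (edgeR adjusted p = 0.52). In the second injured pool 4 of 57 cells held its 181 UMIs, and 1 of them held 56.4% of these. In uninjured retina 6, 1 cell held 95.8% of the 24 UMIs. The estimate changed sign, to -0.38, when cells were thinned to 1000 UMIs.

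**Figure D2:**
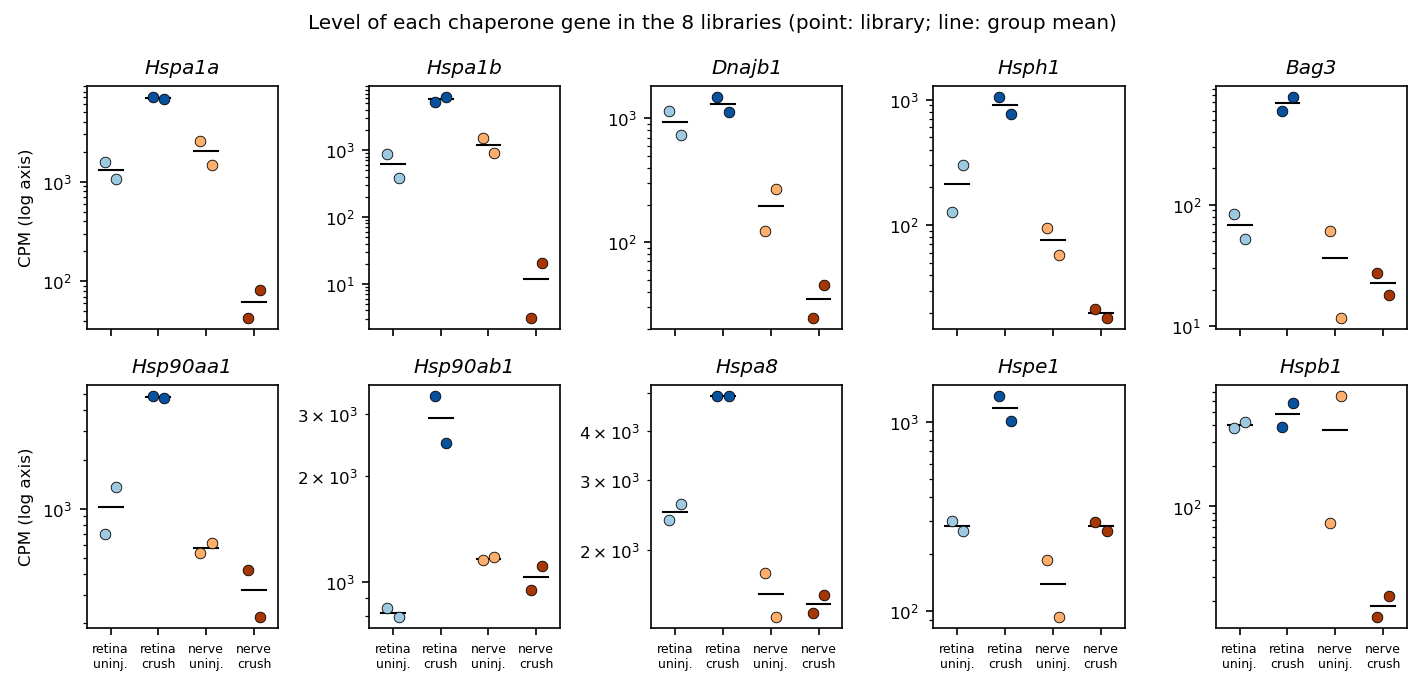
CPM (log axis, a different range for each gene) of the 10 chaperone genes, with 1 point per library, 2 libraries per group, and a line at the group mean. For Hspa1a the injured retina pools lie at 7052 and 6739 CPM and the injured optic nerve libraries at 42.7 and 81.8 CPM, with the uninjured libraries of both tissues between 1073 and 2584 CPM.

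The T and NK-like cells of injured retina carried these transcripts as well, at a lower summed level. The 10 genes summed to 21332 and 20281 CPM in the T and NK-like cells of the pools (22 and 24 cells) and to 31155 and 30987 CPM in the remaining cells (87 and 33). Dnajb1 was the 1 gene at a higher level in the T and NK-like cells of both pools (1676 and 1337 CPM against 1471 and 1100 CPM in the remaining cells), and Hsp90ab1 in the first pool and Hspa1b in the second were higher there by less. Hspa1a and Hspa1b together were at 9201 and 11498 CPM in the T and NK-like cells. Without those cells the same count of 8 genes rose (edgeR). The homeostatic microglia markers, which include P2ry12 and Tmem119, summed to 12683 and 15852 CPM in uninjured and 5012 and 5108 CPM in injured retina. Their part in the result was not tested. A cluster of 117 cells, all from the injured retina pools, was led by several of the 10 genes themselves. It made up 84 of the 87 remaining cells of the first pool and all 33 of the second. The remaining cells were thus grouped in part by these genes, so their higher level against the T and NK-like cells is a description only. The cluster is not used to compare injured with uninjured libraries.

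The other stress genes did not move as one block in the retina. Of 39 other chaperones and co-chaperones, 25 were tested, 3 rose and none fell. These were Hspd1, the Hsp60 partner of Hspe1 (log2 fold change 2.42), Fkbp5, an Hsp90 co-chaperone (2.49), and Dnaja1, another J-domain protein (1.58). Of 20 chaperones and stress genes of the endoplasmic reticulum, 18 were tested, none rose, and 2 fell: Herpud1 (-1.56) and Ddit3 (-1.01). Of all genes tested 9.99% rose and 9.72% fell, so the counts that rose and fell in these lists lay near the shares over all genes. Of 20 immediate early genes, which respond within minutes to a stimulus, 19 were tested and 16 fell, namely Dusp1 (-2.67), Fos (-2.33), Ier2 (-2.28), Junb (-2.14) and 12 more. All of these calls are from edgeR at an adjusted p under 0.05.

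The summed immediate early genes reached 65517 and 66399 CPM without crush in the retina and 19791 and 22242 CPM with it. In the nerve they reached 24814 and 27263 CPM without crush and 10411 and 10300 CPM with it. Immediate early genes were thus lower after crush in both tissues, whereas the summed chaperone genes had opposite orders in retina and nerve by pooled UMIs. The cell medians of the chaperone share did not show that order in nerve. Whether handling of the libraries took part in either was not tested.

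The same question was asked in the optic nerve. None of the 9 chaperone genes tested in the nerve passed in the comparison of injured with uninjured libraries (limma on mean ln values per library, 8 libraries sharing 1 estimate of spread, 5298 genes). In this comparison 0.566% of all genes were called, 19 higher and 11 lower. Before adjustment, 3 of the 9 had a p under 0.05 (Hspa1a, Hspa1b and Hspe1), as did 8.57% of all genes tested. On the CPM scale, 6 of the 9 had ranges that did not overlap with injured lower, against 24.3% of the genes tested, and Hspe1 did so with injured higher, against 15.2%. Of the 6, the ranges of Hsp90ab1 overlapped once cells with at least 5 endothelial markers were left out. An ln value is the natural log of 1 plus the UMIs of a gene per 10000 UMIs of the cell, and a difference of mean ln values is not a log2 fold change.

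Hspa1a and Hspa1b were the genes with the widest gap. Hspa1a was at 2584 and 1454 CPM in uninjured nerve 2 and 4 and at 42.7 and 81.8 CPM in injured nerve 1 and 3. Hspa1b was at 1496 and 919 CPM in uninjured nerve and at 3.05 CPM (1 UMI) and 20.6 CPM (112 UMIs) in injured nerve. The pair summed to 3227 ± 1207 CPM (SD, n = 2) in uninjured and 74.1 ± 40.1 CPM in injured nerve, so the uninjured mean was 43.5 times the injured one, and both injured libraries lay below both uninjured ones. Hspa1b gave 0.579 and 0.632 UMIs per Hspa1a UMI in uninjured nerve and 0.0714 and 0.252 in injured nerve, so its part of the pair was smaller after crush, the reverse of the retina.

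The call on this pair depended on the scale. The difference of mean ln values was -1.11 ± 0.26 for Hspa1a (limma adjusted p = 0.0607) and -0.89 ± 0.23 for Hspa1b (0.113). Both passed with edgeR on recovered UMI counts, with log2 fold changes of -4.71 and -6.00 (adjusted p = 0.000927 for each). They also passed with limma on log2 of CPM plus 1, at -5.01 (adjusted p = 0.00431) and -6.97 (0.017), and with cells thinned to 1000 UMIs (limma adjusted p = 0.0405 for each).

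Cell makeup moved with this difference. In uninjured optic nerve 2, a border macrophage-like cluster held 43 of 103 cells, and there the pair was at 6362 CPM with a UMI in 83.7% of the cells. In the 33 cells of that library outside this cluster and the oligodendrocyte-marker cluster it was at 1201 CPM, with a UMI in 21.2%. The cells left outside the named clusters were at 2902 CPM in uninjured nerve 4 (23 cells). In injured nerve 1 and 3 (123 and 610 cells) they were at 54.9 and 75.7 CPM. These leftover cells were not matched in type. A cluster led in part by P2ry12 and Tmem119 gave 19 of them in uninjured nerve 2 and 10 in uninjured nerve 4, against 4 in injured nerve 3. In uninjured nerve 4, 64 of the pair's 204 UMIs lay in 2 cells with at least 5 endothelial markers. By CPM the gap between uninjured and injured nerve was thus seen outside the border macrophage-like cells too, in cells of unlike makeup. The part of makeup in it was not tested. In border macrophage-like cells of injured nerve 3 (26 cells) the pair was at 808 CPM. Without all border macrophage-like cells the limma differences were -0.63 for Hspa1a and -0.44 for Hspa1b (adjusted p = 0.402 and 0.541). Without T and NK-like, oligodendrocyte-marker and endothelial-marker cells they were -1.39 and -1.12, and passed (limma adjusted p = 0.0147 and 0.0314). Both sets of cells were chosen after seeing the data.

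The remaining genes differed less in the nerve. Dnajb1 was at 123 and 268 CPM in uninjured and 24.4 and 44.8 CPM in injured nerve, and Hsph1 at 94.9 and 58.2 CPM against 21.3 and 18.1 CPM. Their ranges did not overlap, but their ln differences of -0.27 ± 0.20 and -0.17 ± 0.16 did not pass (limma adjusted p = 0.818 and 0.922). Bag3 was at 61.4 and 11.6 CPM (1 UMI) against 27.4 and 18.1 CPM, so its groups overlapped.

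The Hsp90 genes and Hspa8 had smaller differences in the nerve. Hsp90aa1 was at 541 and 616 CPM in uninjured and 424 and 218 CPM in injured nerve. Hsp90ab1 was at 1150 and 1175 CPM against 948 and 1110 CPM, and Hspa8 at 1742 and 1349 CPM against 1381 and 1532 CPM. The Hspa8 ranges overlapped, and the ranges of both Hsp90 genes did not, with injured lower by CPM. Of the 101 Hsp90ab1 UMIs of uninjured nerve 4, 41 lay in 2 cells with at least 5 endothelial markers. Without such cells Hsp90ab1 was at 1148 and 1002 CPM in uninjured and 948 and 1103 CPM in injured nerve, so its ranges overlapped. The ln differences were -0.26 ± 0.29 for Hsp90aa1, 0.09 ± 0.27 for Hsp90ab1 and 0.20 ± 0.26 for Hspa8, none of which passed (limma adjusted p from 0.942 to 0.994). The sign for Hsp90ab1 and Hspa8 turned with the scale, to -0.18 and -0.08 with limma on log2 of CPM plus 1.

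Hspe1 was the single gene of the 10 whose level was higher in both injured nerve libraries. It was at 187 and 93.0 CPM in uninjured and 296 and 267 CPM in injured nerve, with an ln difference of 0.44 ± 0.21 (limma adjusted p = 0.568). The value of 93.0 CPM rests on 8 UMIs.

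Hspb1 was left out of the limma fits because under 10% of cells held a UMI of it. Its CPM was 75.4 and 651 in uninjured nerve and 15.2 and 21.9 in injured nerve. The value of 651 CPM in uninjured nerve 4 came from 3 of 28 cells, and 55 of its 56 UMIs lay in the 2 cells of that library with at least 5 endothelial markers. Without such cells uninjured nerve 2 and 4 were at 73.7 and 16.7 CPM, and injured nerve 1 and 3 at 15.2 and 12.5 CPM. Across all libraries 6 of 9 such endothelial-marker cells had an Hspb1 UMI (median 4726 UMIs per cell), and 5.004% of the other 1159 cells did (median 2484). With edgeR on recovered counts, which tested this gene, the log2 difference was -3.73 ± 0.74 (adjusted p = 0.0373).

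Of the other lists, none of the 33 tested chaperones and co-chaperones or the 20 endoplasmic reticulum genes passed in the nerve (limma). Of 19 immediate early genes 2 fell: Jun by 1.36 (adjusted p = 0.00639) and Zfp36, an RNA decay factor, by 1.47 (adjusted p = 0.0137) on the ln scale.

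The tissues were then compared. The difference after crush itself differed between the tissues for 5 of the 9 genes tested, and in each the nerve value was the lower one (limma interaction term, 8 libraries). Of all genes tested, 3.91% were lower by this test, 1.7% higher, and 5.61% were called in either direction. The median interaction was -1.21 over the 9 genes and -0.05 over all genes. Hspa1b had -3.42 ± 0.32 (limma adjusted p = 1.18e-05) and Hspa1a -3.22 ± 0.36 (0.000107). Hsph1 had -1.21 ± 0.23 (0.00566), Bag3 -0.96 ± 0.15 (0.00246) and Hsp90aa1 -1.67 ± 0.41 (0.0248).

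These calls were not equally firm. Hspa1a and Hspa1b stayed below an adjusted p of 0.05 in each alternative run and with each library left out. Hsp90aa1 did not pass without injured retina pool 1 and 2 (limma adjusted p = 0.0852), uninjured retina 5 (0.0693), uninjured nerve 2 (0.101) or injured nerve 3 (0.071), with estimates of -1.38 to -1.62. Hsph1 had -0.69 and did not pass with cells thinned to 1000 UMIs (adjusted p = 0.151), and Bag3 did not pass on log2 of CPM plus 1 (0.147). The other 4 genes had estimates of -1.24 ± 0.38 for Hsp90ab1 (limma adjusted p = 0.0634), -0.75 ± 0.28 for Dnajb1 (0.112), -0.56 ± 0.29 for Hspe1 (0.262) and -0.26 ± 0.37 for Hspa8 (0.719).

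**Figure D3:**
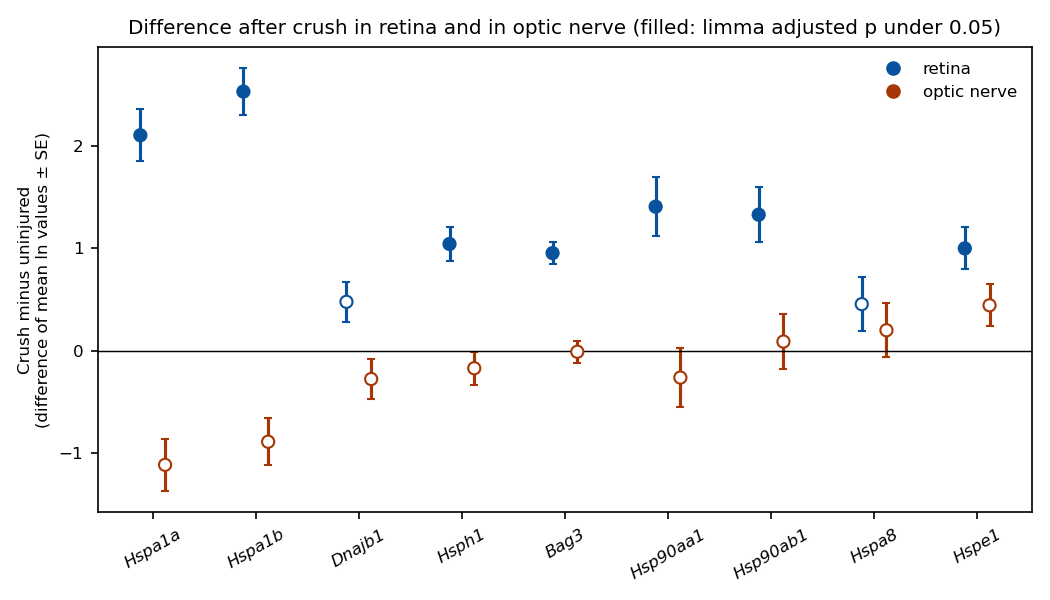
Difference of mean ln values between injured and uninjured libraries (vertical axis, ± SE from limma over 8 libraries) for 9 chaperone genes in retina (blue) and optic nerve (brown), with filled points where the limma adjusted p is under 0.05. Hspa1a and Hspa1b lie above 2 in retina and at -1.11 and -0.89 in nerve, and no nerve point is filled.

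Without crush, 2 of the 9 genes tested differed between the tissues. Dnajb1 was lower in nerve by 1.10 ± 0.20 on the ln scale (limma adjusted p = 0.00156), and Hspa8 was lower by 1.20 ± 0.26 (0.00673). The other 7 of the 9 did not pass, and of all genes 8.25% were lower in nerve and 1.77% higher. The Hspa8 call was lost without uninjured retina 6 (adjusted p = 0.0761), without uninjured nerve 4 (0.0744) and on log2 of CPM plus 1 (0.127). The differences of Hspa1a and Hspa1b were -0.11 ± 0.26 and 0.03 ± 0.23, which leaves either direction within the SE.

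After crush all 9 genes tested were lower in nerve than in retina (limma), against 12.7% of all genes (0.755% were higher). Called or not, 4376 of the 5298 genes tested lay below 0 on this scale and 922 above. The median difference was -1.56 over the 9 genes and -0.097 over all genes. Median UMIs per cell were 12989 and 3853 in the injured retina pools, and 1159 and 2176.5 in injured nerve 1 and 3. The ln differences were -3.38 ± 0.23 for Hspa1b (adjusted p = 1.09e-07), -3.33 ± 0.26 for Hspa1a (4.5e-07), -2.42 ± 0.29 for Hsp90aa1 (8.83e-05), -1.85 ± 0.20 for Dnajb1 (2.1e-05) and -1.56 ± 0.16 for Hsph1 (1.94e-05). Hspa8, Hsp90ab1, Hspe1 and Bag3 differed by 1.13 to 1.46 in the same direction, with adjusted p from 6.08e-06 to 0.0058. Leaving out injured retina pool 1 and 2 lost the call on Hsp90ab1 (-1.13, adjusted p = 0.0654) and on no other gene. By CPM, the mean of Hspa1a and Hspa1b together in injured retina was 171 times that in injured nerve, and the mean of Hsp90ab1 2.84 times. The comparisons of this and the preceding paragraphs share libraries and are not independent of each other. Tissue cannot be told apart from differences in how the retina and nerve libraries were made.

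In the injured tissues the other chaperones followed in part: 7 of 33 tested were lower in nerve and none higher, against 12.7% of all genes lower. Among the 7 were Dnaja1 at -1.44, Hspd1 at -1.18, Fkbp5 at -0.66 and the Hsp110 gene Hspa4 at -0.43 (limma, difference of mean ln values).

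Single cells were described next. The number of the 10 genes seen in a cell depends on its depth, so each cell was thinned to 1000 UMIs, leaving out 277 shallower cells in all (1 in retina). A thinned cell then held on average 6.28 and 5.75 of the 10 genes in the injured retina pools, 3.22 and 3.42 in uninjured retina 5 and 6, 2.77 and 2.30 in uninjured nerve 2 and 4, and 1.84 and 1.79 in injured nerve 1 and 3. The injured retina pools were the highest 2 libraries and the injured nerve libraries the lowest 2. Before thinning, 97.2% and 93.0% of injured retina cells held at least 5 of the genes, with 51.6% and 58.3% in uninjured retina, 37.9% and 28.6% in uninjured nerve, and 6.85% and 24.2% in injured nerve, where depth differs between libraries.

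The share of thinned cells with an Hspa1a or Hspa1b UMI was 90.03% and 86.01% in injured retina, 36.6% and 40.5% in uninjured retina, 47.8% and 35.04% in uninjured nerve, and 4.42% and 5.10% in injured nerve. Unthinned, the shares were 94.5% and 89.5% in injured retina (exact 95% intervals 88.4% to 98.0% and 78.5% to 96.0%) and 7.53% and 11.7% in injured nerve (3.82% to 13.1% and 9.41% to 14.4%). These intervals cover counting error only. The pair was therefore detected in most cells of injured retina. At least 50% of its UMIs lay in 2 of 31 and 2 of 12 cells of uninjured retina 5 and 6. In the injured retina pools it took 23 of 109 and 8 of 57 cells. In uninjured nerve 2 and 4 it took 7 of 103 and 2 of 28 cells, and in injured nerve 1 and 3, 4 of 146 and 9 of 682. As a part of the cells of each library, the retina groups overlapped. No cell type here is known to lack these genes, so no share of background UMIs from free RNA could be set beside them, and its part in the low shares of injured nerve was not tested.

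Hspa8 and Hsp90ab1 behaved unlike the inducible pair across cells of the nerve. After thinning, Hspa8 was seen in 61.3% and 51.8% of cells of uninjured nerve and in 60.2% and 68.1% of cells of injured nerve. Hsp90ab1 was seen in 59.6% and 46.5% and in 54.1% and 57.6%. For both genes the uninjured and injured shares overlapped. Hspe1 was seen in 14.2% and 8.29% of uninjured and 23.6% and 21.4% of injured nerve cells. How many of all genes had shares without overlap was not counted for this measure. The 8.29% comes from 19 thinned cells of uninjured nerve 4, a library with 8 Hspe1 UMIs. Of these, 6 lay in the 2 cells with at least 5 endothelial markers.

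Most pairs of the genes were seen together in slightly more cells than the product of their single shares. For each pair, the share of thinned cells with both genes was divided by the product of the single shares, in the 5 libraries with at least 50 such cells, for pairs with an expected share of at least 1%. The ratio was above 1 for 45 of 45 pairs in the first injured retina pool (median 1.06), 43 of 45 in the second (1.07), 32 of 37 in uninjured nerve 2 (1.15), 15 of 16 in injured nerve 1 (1.20) and 14 of 15 in injured nerve 3 (1.08). Most ratios were thus close to 1. The cells of a library share cell types and library quality, so the ratios are a description.

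The pairs with the highest ratios differed by library. In the first injured retina pool Bag3 and Hspb1 had 1.73, with 4.30% of thinned cells holding both and 2.49% expected. The same pair had the highest ratio, 1.94, in the second pool, where only 4 of 57 cells held an Hspb1 UMI, so this ratio rests on few cells. In uninjured nerve 2, Hspa1a and Hspa1b had a ratio of 2.03, with 31.3% of cells holding both against 15.4% expected, and Hsph1 and Hspe1 had 2.13, on 2.29% against 1.08%. Hspa1a and Hspa1b were each so common in injured retina (85.1% and 81.1% in the first pool) that their ratio there could not rise far and was 1.10. Thinned to 2000 UMIs, the medians were 1.03 in the first injured retina pool, 1.04 in uninjured nerve 2 and 1.02 in injured nerve 3, where 18 of 27 pairs lay above 1.

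**Figure D4:**
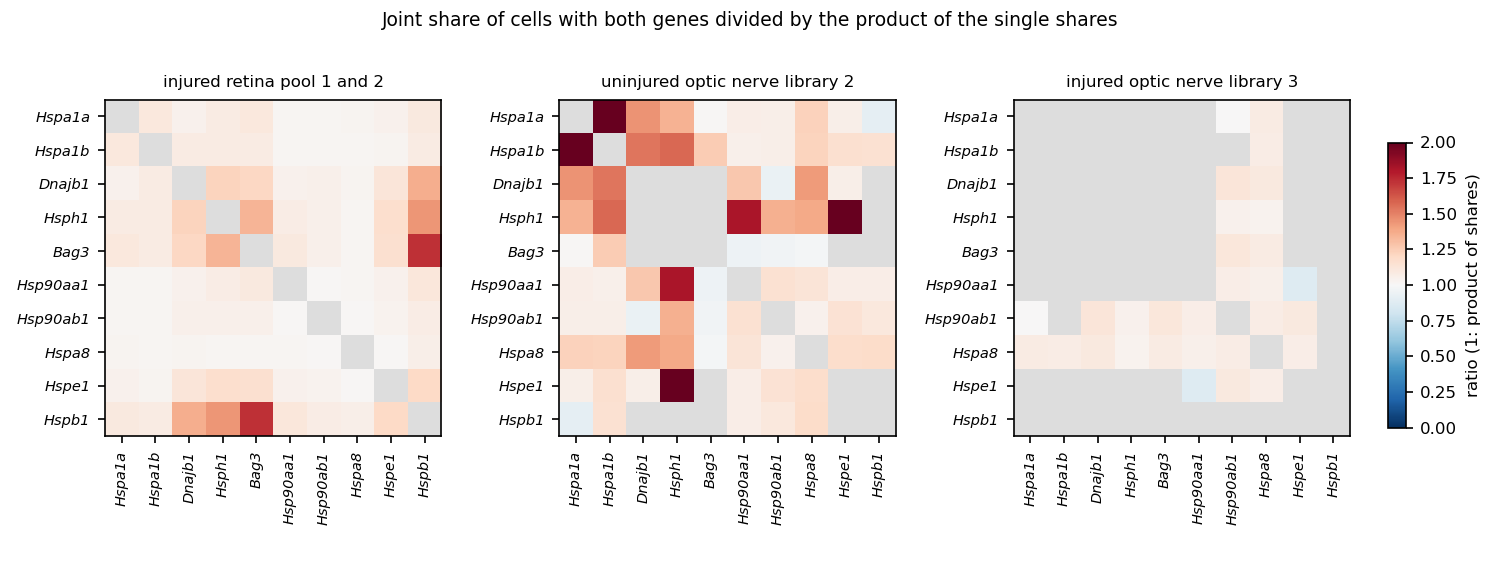
Ratio of the share of cells (thinned to 1000 UMIs) with both genes to the product of the single shares, for each pair of the 10 chaperone genes, in 3 libraries; red is above 1, blue below 1, and grey marks pairs with an expected joint share under 1%. In injured retina pool 1 and 2 all 45 pairs lie above 1, with Bag3 and Hspb1 highest at 1.73.

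The genes whose levels followed the chaperones most closely were taken from the 5245 ranked genes by Pearson's r between log2 of CPM plus 1 and the mean of the 10 genes, over the 8 libraries. These were Lcp1, an actin-bundling protein of leukocytes (r = 0.95), Id2, an inhibitor of DNA-binding transcription factors (0.93), Ssh2, a cofilin phosphatase (0.92), Swt1 (0.92) and Dnaja1 (0.90). The values are a description over 8 libraries that also differ in tissue, depth and cell makeup. Lcp1 ranged only from 187 CPM in injured nerve 3 to 335 CPM in the second injured retina pool, while Dnaja1 ranged from 192 to 1697 CPM.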

How the data were processed

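Per the series' design text, 10x Genomics 3′ libraries (v2 chemistry) were aligned to mm10 and filtered to cells with 200 to 6500 genes, and batches were merged and normalised with Seurat. The submitters' processing notes name Cell Ranger 1.3, bcl2fastq 2.17.1.14 and Seurat 4.0.3. The authors deposited raw UMI counts for 209 retina cells, and for 959 optic nerve cells natural log (ln) values, which were found to be ln(1 + 10000 × UMI / cell total). Undoing the log gave whole counts, within 0.01, for 1374534 of 1374534 values. Of 31833 Ensembl identifiers, 31394 matched a symbol.

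UMIs were summed per library. CPM is UMIs per 1000000, pooled over a library's cells. Retina injury was tested with edgeR 4.0.16 (TMM, filterByExpr, quasi-likelihood), and the other comparisons with limma 3.58.1 (trend) on mean ln values of genes seen in at least 10% of cells. Calls used a Benjamini-Hochberg adjusted p of 0.05 over all genes tested. On simulated data with 200 changed genes among 3312, edgeR recovered 79% of 4-fold and 96% of 8-fold changes for the retina comparison. For the optic nerve comparison, limma recovered 87% of differences of 0.5 and 96.5% of differences of 1 on the ln scale among 5298 genes. The changed genes were picked at random, so these shares do not give the recovery for the chaperone genes. Their SE in the nerve ranged from 0.11 to 0.29, and Hspa1a at -1.11 did not pass (limma adjusted p = 0.0607).

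Clusters came from Leiden's method at resolution 0.5 (scanpy 1.11.5, on 15 neighbours in 30 components of 2000 variable genes) and were named from marker lists. No doublet caller was run. Thinned shares are exact hypergeometric expectations. The 10 genes were named in each comparison, and up to 4 genes that passed from each of the lists of other chaperones, endoplasmic reticulum and immediate early genes. The members and lists were chosen with earlier results of these data known. Alternatives were DESeq2 1.42.0 for the retina, other scales, filters, sets of cells and depths, and each library left out in turn. Motifs were searched in RefSeq promoter windows. The ubiquitin and proteasome list is not reported here. All columns of per-sample values were used.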

Additional observations from a re-analysis of the deposited data

Results flagged for a closer look

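The difference after crush differed between optic nerve and retina in a direct test of that difference (limma interaction term on mean ln values, 8 libraries) for 5 of the 9 chaperone genes tested. The values, nerve minus retina, were -3.416 for Hspa1b, -3.216 for Hspa1a, -1.668 for Hsp90aa1, -1.213 for Hsph1 and -0.9626 for Bag3. Each of the 5 rose in the retina and had a lower or nearly equal mean in the injured nerve, and none of them passed in the nerve alone on this scale. Groups of 2 libraries are too small for a check of single outlying libraries.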

How the results depend on the processing

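The 8 chaperone genes that rose in the retina stayed 7 to 9 in number, all higher, under each alternative run. In injured tissue 8 to 10 were lower in nerve. In the optic nerve the count of chaperone genes called, 0 with limma, was 3 with edgeR on recovered counts (Hspa1a, Hspa1b and Hspb1), and 2 with limma on log2 of CPM plus 1, with thinning to 1000 UMIs, and without T and NK-like, oligodendrocyte-marker and endothelial-marker cells. It was 1 without T and NK-like cells, and 0 to 1 with a library left out. The interaction count of 5 was 3 without the filter on low values. In uninjured tissue the count of 2 was 1 with edgeR and with log2 of CPM plus 1, and 1 to 2 with a library left out. Counts over all genes moved more. The retina count of 653 was 289 with DESeq2, 260 with edgeR on 8 libraries, 244 after thinning (on fewer genes) and 415 to 699 with a library left out. The nerve count of 30 was 53 with edgeR, 6 on log2 of CPM plus 1, 1 without the filter, 11 after thinning and 7 to 67 with a library left out. The interaction count of 297 was 72, 56, 28 and 67 under the same settings, 183 without T and NK-like, oligodendrocyte-marker and endothelial-marker cells, and 86 to 541 with a library left out. The uninjured tissue count of 531 was 120, 207 and 137 (edgeR, log2 of CPM plus 1, thinning) and 227 to 907. The injured tissue count of 713 was 383, 38, 440 and 56 (edgeR, log2 of CPM plus 1, no filter, thinning) and 143 to 1085. Signs that turned were all of differences that had not passed. These were Hspb1 in retina (-0.38 after thinning), and in nerve Hspa8 (-0.0756 on log2 of CPM plus 1, -0.0699 to 0.472 with a library left out), Hsp90ab1 (-0.18, and -0.14 to 0.32) and Bag3 (0.000661 without the 3 kinds of marker cells, and -0.0773 to 0.0603). The interaction of Hspa8 was 0.00453 without border macrophage-like cells and -0.53 to 0.0159 with a library left out. In uninjured tissue Hspa1a was 0.56 with edgeR, 0.58 on log2 of CPM plus 1, 0.40 after thinning, 0.19 without the 3 kinds of marker cells and -0.32 to 0.10 with a library left out. Hsp90ab1 was 0.45, 0.51 and 0.60 under the first 3 of these and -0.29 to 0.17, and Hspa1b was -0.31 without border macrophage-like cells and -0.16 to 0.23. A cell of uninjured nerve 4 held 4.10 of the 10 genes thinned to 2000 UMIs, against 2.30 at 1000. Other causes of these moves were not tested. The sets that leave out 3 kinds of marker cells or the border macrophage-like cells were chosen after seeing the data. With a library left out, the lone library of its group is assumed to vary like the others. No paired analysis was possible because the labels do not link libraries to animals. Title numbers are shared only between tissues, and numbers 2 and 4 are injured in retina and uninjured in nerve. Depth limits what can be said of Bag3, Hsph1 and Dnajb1 in the nerve, where single libraries held 1 to 44 UMIs of them outside injured nerve 3.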
